A study of Mus musculus with 8 samples.

Results

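Transcripts of 35 genes of glycolysis and the response to low oxygen were described in mouse regulatory T cells (Treg cells). The genes were selected by symbol: glycolytic enzymes, glucose and lactate transporters, and genes of the hypoxia-inducible factor (HIF) pathway. All 35 were found among the 24453 genes of the deposited table, and the rule that names them uses no measured value, although it was written with earlier results of these data known. The study set Treg cells of T138 and T143, a pair of mouse lines derived by nuclear transfer from T cells, beside each other and beside wild type (WT), to ask whether Treg cells fall into subsets. The RNA-seq libraries number 2 for T138, 3 for T143 and 3 for WT, each from T cells sorted as positive for CD4 and Foxp3. No group was treated. Every library, WT included, carries the strain label NOD-Foxp3GFP-Rag1-/-, that is, a non-obese diabetic background with a green fluorescent Foxp3 reporter and without Rag1. T cells normally need Rag1 to form their receptor, and it could not be settled whether WT mice truly carried this label. Each nuclear transfer line descends from the nucleus of 1 T cell and so stands for 1 founder cell. Age, sex and the mouse behind each replicate are not given in the labels, so p-values reflect only how these libraries vary, part of which may be technical. For 2 libraries the source name disagrees with the title and the model label, which were followed here: T143 replicate 1 is listed there under T138 and WT replicate 1 under T143. Over log2 values of all genes tested, T143 replicate 1 correlated at 0.968 and 0.953 with the other T143 libraries, and at 0.911 and 0.904 with T138. WT replicate 1 correlated at 0.93 and 0.948 with the other WT libraries, and at 0.901, 0.869 and 0.846 with T143. Both were thus nearer to the group of their title.

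Glycolysis splits glucose into pyruvate and yields energy without oxygen. Pyruvate then enters mitochondria or is turned into lactate, which leaves the cell through monocarboxylate transporters. HIF is a transcription factor that prolyl hydroxylases and the VHL protein remove while oxygen is present, and that raises glucose transporters, glycolytic enzymes and vascular growth factor when oxygen falls. In T cells the same pathway is known to respond to receptor signals as well as to oxygen, and effector T cells are known for a higher glycolytic flux than resting cells.

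Values below are normalised read counts, which are the reads of a gene scaled by the authors to the same total of 15.59 M in every library. The libraries held 7.83 to 22.64 M reads, and 3 reads, the limit that a count of 0 allows, correspond to a value of 2.07 to 5.97. That limit covers counting error only. Changes are differences of mean log2(value + 1) with their standard error, which understates changes of low genes. A gene was called at a Benjamini-Hochberg adjusted p under 0.05 in limma over all 15547 genes tested, and every adjusted p below is from that test unless another tool is named. The label of the sort was not borne out equally in every group. Summed markers of Treg cells (5 genes) made up 0.547 and 0.563% of the signal in T138, 0.465 to 0.565% for WT and 0.07 to 0.127% for T143. Summed T cell markers (5 genes) spanned 0.215 to 0.368% over all 8 libraries. Neutrophil markers (15 genes) stood at 0.618, 1.06 and 3.8% in T143 replicates 1, 2 and 3, at 0.164 and 0.0305% for T138 and at 0.00583% or less in WT, although the sort gate should leave neutrophils out. The female transcript Xist was at 19143 to 24992 in T143 and at 130 or less in the other libraries, while the Y-linked Ddx3y was at 1.27 or less in T143 and at 2094 to 3634 elsewhere. The line T143 and sex cannot be told apart. In bulk RNA, fewer cells of a type and less RNA per cell cannot be told apart either.

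The 35 genes together took 0.308 and 0.276% of the signal in T138, 0.375, 0.346 and 0.484% for T143, and 0.314, 0.266 and 0.331% for WT. T143 libraries held the 3 highest shares. In T143 against T138, 9 members were called higher (25.7%) and 1 lower (2.86%), 28.6% in all, where 10.8% of all genes tested were called higher, 10.2% lower and 21.0% in either direction. Genes of lactate formation and export, of the hexose steps and of the stress response were among the 9: Slc16a1, Ddit4, Ldha, Pfkfb4, Pdk3, Pfkp, Pkm, Slc16a3 and Hk1. The prolyl hydroxylase gene Egln3 was the member called lower. The median change was 0.38 over the members and 0.15 over all genes tested. In T138 against WT no member was called higher and 3 were called lower (8.57%), namely Pfkm, Ldhb and Eno3, where 5.74% of all genes were called higher, 5.3% lower and 11.0% in either direction. At an unadjusted p under 0.05 limma placed 3 members higher, and the adjusted calls of edgeR and DESeq2 placed 0 and 1 higher. In T143 against WT 8 members were called higher (22.9%) and 2 lower (5.71%), 28.6% in all, where 11.7% of all genes were called higher, 12.1% lower and 23.8% in either direction. The 8 were Pfkfb4, Hk3, Slc16a1, Slc16a3, Ldha, Ddit4, Aldoa and Gpi1, and the 2 were Eno3 and Ldhb. Shares called in either direction were near those of all genes in each comparison. The shares called higher in T143 were above those of all genes, and no test of the list as such was made. The comparisons share libraries in pairs, so a gene called in 2 of them has not been measured again. Of the 35 genes, 7 were called in 2 comparisons, 9 in 1 and 19 in none. The same count was not made over all genes tested, so it cannot be said whether these numbers are unusual.

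**Figure D1:**
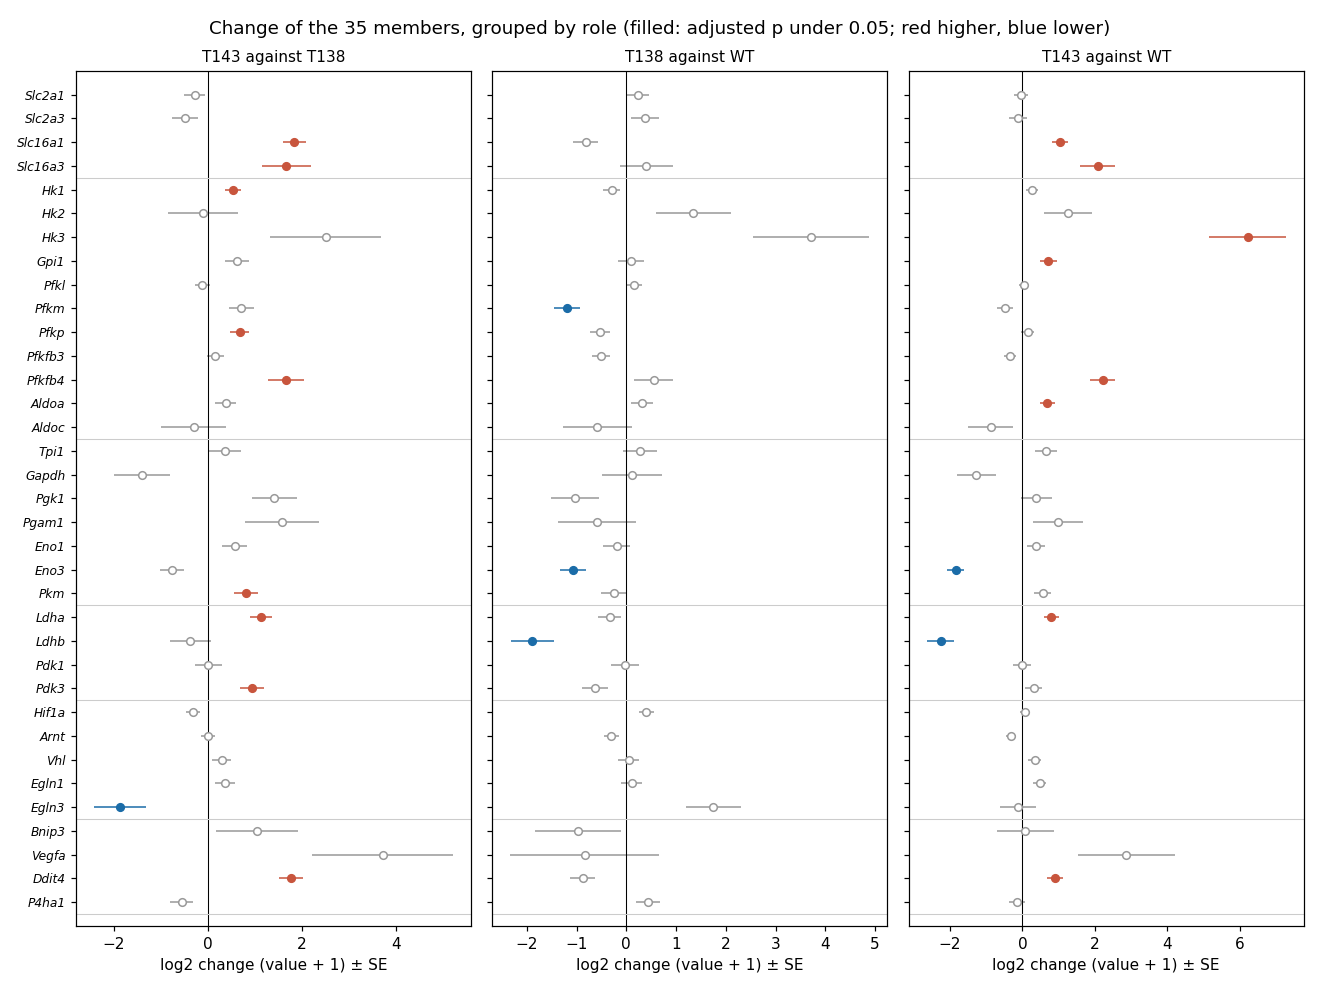
Change of each of the 35 genes (y axis, grouped by role) on the log2(value + 1) scale (x axis) in the 3 comparisons, with points for the limma estimate and bars for its standard error. Filled points passed an adjusted p of 0.05, red for higher and blue for lower; 9 filled red points stand in T143 against T138, none in T138 against WT and 8 in T143 against WT.

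Scaling and single libraries moved these counts, and those of all genes too. In T143 against T138, 21.0% of all genes were called, 19.2% after median centring, 17.4% without WT replicate 3 and 13.4% without T143 replicate 2. In T138 against WT, 11.0% were called, 10.6% after median centring and 7.17% without WT replicate 3. Fewer of all genes were also called in both comparisons without either T138 library, which leaves 1 in that group. Over all genes, the median change of T143 against T138 was 0.15 as deposited and 0.01 once libraries were quantile normalised, and that of T143 against WT was 0.05 and -0.08. After centring each library on its median, 6 members were called higher and 2 lower in T143 against T138, 1 and 5 in T138 against WT, and 6 and 2 in T143 against WT. The count of 10 for T143 against T138 became 2 without T138 replicate 2, 4 without WT replicate 3, and 6 without T138 replicate 1 or without T143 replicate 2. The count of 3 for T138 against WT became 0 without T138 replicate 2 and without WT replicate 3, 1 without T138 replicate 1 or without WT replicate 1, 5 without WT replicate 2 and 6 without T143 replicate 3. Of 23 calls over the 3 comparisons, 8 were kept under all 20 alternative settings: Slc16a1 and Ddit4 against T138, and Hk3, Pfkfb4, Eno3, Ldhb, Slc16a1 and Slc16a3 against WT. The calls kept under the fewest settings were Hk1 (6 of 20), Pkm (7) and Slc16a3 (8) against T138 and Gpi1 (6) against WT.

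HIF and its partner ARNT are known to bind ACGTG or GCGTG, so the start regions of the genes were searched for both. Start regions of 34 of the 35 genes were matched in a RefSeq table of GRCm38.p6, from 250 bases before to 50 bases after the start. Either motif on either strand was found in 28 of the 34 (82.4%), against 43.8% of all 32851 windows and 50.1% of the 20920 windows of genes in the deposited table. ACGTG was in 55.9% of the members' windows, against 19.6% of all windows, and GCGTG in 58.8%, against 32.4%. The E-box CACGTG, which holds ACGTG and is the site of other factors too, was in 14.7%, against 7.15% of all. Base composition differed in the same direction, and both motifs hold a CG. The members' windows had a median of 62.5% G and C and 20.5 CG dinucleotides. Those medians were 52.7% and 7 in all windows, and 56.7% and 13 in windows of genes in the deposited table. Each member counts with a single window, while other genes can count with several. The members were chosen in part as HIF pathway genes, so a higher share of HIF motifs could follow from that choice. Among the members called in a comparison, 13 of 16 windows had a match. The stretches that hold the matches are printed for the 6 called members with the largest change that have any, each 5′ to 3′ on the strand of its gene. Capitals mark either motif or its reverse complement, and in Slc16a1 the E-box as well.
Hk3 (chr13:55021522-55021556): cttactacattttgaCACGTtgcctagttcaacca
Ldhb (chr6:142508064-142508098): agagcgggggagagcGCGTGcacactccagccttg
Pfkfb4 (chr9:108991770-108991804): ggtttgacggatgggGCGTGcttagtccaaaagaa
Slc16a3 (chr11:120949025-120949072): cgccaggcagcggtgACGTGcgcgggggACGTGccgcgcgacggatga
Egln3 (chr12:54204084-54204118): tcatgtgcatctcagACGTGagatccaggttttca
Slc16a1 (chr3:104638449-104638703): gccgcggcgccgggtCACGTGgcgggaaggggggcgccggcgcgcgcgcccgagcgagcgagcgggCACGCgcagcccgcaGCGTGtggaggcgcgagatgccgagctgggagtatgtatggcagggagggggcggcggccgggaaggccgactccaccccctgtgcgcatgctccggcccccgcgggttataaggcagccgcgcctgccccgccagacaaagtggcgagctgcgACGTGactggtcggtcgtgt
Slc16a1, Slc16a3 and Pfkfb4 lie on the plus strand and Hk3, Ldhb and Egln3 on the minus strand. The starts used for Slc16a3 and Pfkfb4 lie 587 and 124 bases from the start of the transcript named in the deposited table. These 6 genes did not move alike: 4 of them were called higher in T143 in at least 1 comparison, and Ldhb and Egln3 were called lower. A match is a description of letters and no measure of binding.

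Among the transporters, the lactate exporters were called and the glucose importers were not. Slc16a1 encodes MCT1, a carrier of lactate and pyruvate (GRCm38 chromosome 3, 104638664 to 104658462). Its values were 241 and 376 for T138, 866, 1322 and 1111 for T143, and 488, 547 and 562 for WT. The 3 groups did not overlap, with T143 highest and T138 lowest. The change was 1.84 ± 0.25 (SE) in T143 against T138 (adjusted p = 0.000907) and 1.03 ± 0.22 against WT (adjusted p = 0.00763), while T138 against WT gave -0.82 ± 0.25 (adjusted p = 0.0588). Slc16a3 encodes MCT4, the low-affinity lactate exporter of highly glycolytic cells and a known HIF target (chromosome 11, 120948484 to 120959000). Its values were 184 and 150 for T138, 293, 410 and 1239 for T143, and 98.5, 114 and 176 for WT. T143 replicate 3 stood at 3.53 times the mean of the other two T143 libraries, and those were also above the T138 and WT libraries. The change was 2.07 ± 0.48 against WT (adjusted p = 0.0107) and 1.67 ± 0.53 against T138 (adjusted p = 0.048). The call against T138 was lost on leaving out any 1 of 7 libraries (adjusted p 0.0547 to 0.21) and with edgeR (adjusted p = 0.062). Without T143 replicate 3 the change was 1.46 against WT (adjusted p = 0.0208) and 1.06 against T138 (adjusted p = 0.095).

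Slc2a1 and Slc2a3 encode the glucose importers GLUT1 and GLUT3. Slc2a1 spanned 671 to 986 over the 8 libraries with overlapping groups, and its changes ran from -0.28 to 0.23 in the 3 comparisons. Slc2a3 was at 4150 and 3972 for T138, 2115, 2365 and 4807 for T143, and 3151, 3337 and 2968 for WT. T143 replicates 1 and 2 were the lowest of all libraries and T143 replicate 3 was the highest. It was not called over all libraries, with -0.49 ± 0.28 against T138 (adjusted p = 0.245). Without T143 replicate 3 it was called lower in T143, by -0.86 against T138 (adjusted p = 0.00319) and -0.49 against WT (adjusted p = 0.0262). Per kilobase of transcript, Slc2a3 was the larger of the pair in every library.

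In upper glycolysis (11 genes), 3 members (27.3%) were called higher in T143 against T138 and 4 (36.4%) against WT. Of all genes tested, 10.8 and 11.7% were called higher in these comparisons. Hexokinases trap glucose in the cell by phosphorylation. Hk1, the form of most tissues, was at 2950 and 2200 for T138, 3359, 3818 and 4003 for T143, and 3090, 2741 and 3559 for WT. It was higher in T143 than in T138 by 0.54 ± 0.17 (adjusted p = 0.0484), a call lost on leaving out any 1 of 6 libraries (adjusted p 0.0512 to 0.341). Hk2, the inducible form and a known HIF target, was at 226 and 292 for T138, 93.5, 272 and 540 for T143, and 39.3, 171 and 148 for WT, and was not called.

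Hk3, a hexokinase known from myeloid cells (chromosome 13, 55005985 to 55021475), had the largest estimate of the members. Its values were 209 and 179 for T138, 468, 1058 and 2670 for T143, and 1.38, 56.4 and 22.8 for WT. T143 libraries lay above T138 libraries and these above WT libraries, of which replicate 1 was under its 3-read value of 2.07. The change against WT was 6.21 ± 1.05 (adjusted p = 0.00311), and 5.25 with a pseudocount of 10. T138 against WT gave 3.71 ± 1.17 (adjusted p = 0.0774) and T143 against T138 gave 2.5 ± 1.17 (adjusted p = 0.16). Summed neutrophil markers had the same order of groups and, within T143, the same order of libraries. Monocyte markers (8 genes) were at 0.0783, 0.199 and 0.318% of the signal in T143 replicates 1, 2 and 3. They were at 0.109 and 0.086% for T138 and at 0.00727% or less in WT. The part of such cells in the values of Hk3 was not tested.

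**Figure D2:**
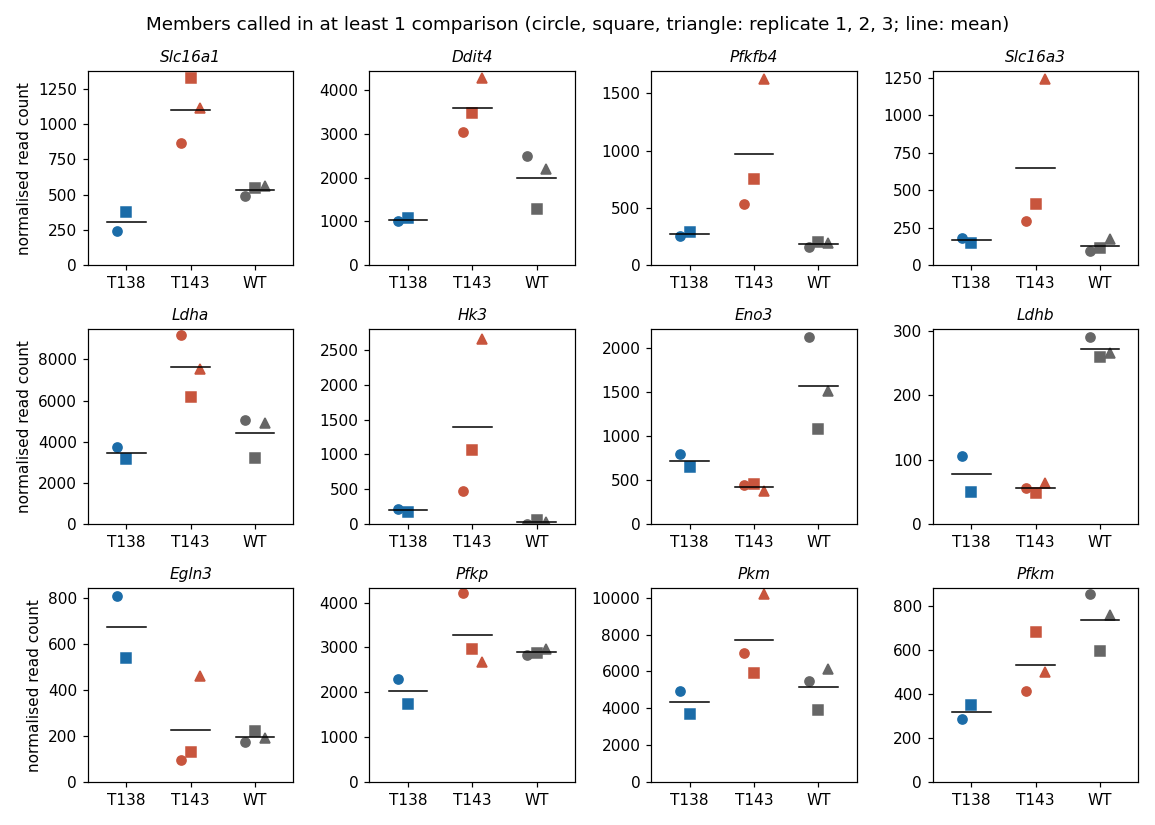
Normalised read counts (y axis, linear from 0) of 12 of the genes called in at least 1 comparison, by group (x axis), with circle, square and triangle for replicates 1, 2 and 3 and a line at the group mean. Slc16a1 and Ddit4 of T143 lie above all other libraries, T143 replicate 3 stands apart in Slc16a3, Pfkfb4 and Hk3, and WT stands apart upward in Eno3 and Ldhb.

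Gpi1, which turns glucose 6-phosphate into fructose 6-phosphate, was at 3358 and 3307 for T138, 4681, 3787 and 7571 for T143, and 3072, 2636 and 3822 for WT. It was called higher against WT by 0.71 ± 0.23 (adjusted p = 0.0499), although T143 replicate 2 lay below WT replicate 3. That call was lost on leaving out any 1 of 7 libraries (adjusted p 0.0569 to 0.158). Phosphofructokinase commits sugar to glycolysis and has liver (Pfkl), muscle (Pfkm) and platelet (Pfkp) forms. Pfkl stayed between 1084 and 1404 in all libraries. Pfkm was at 287 and 352 for T138, 416, 680 and 499 for T143, and 853, 594 and 756 for WT, with T138 below every other library. It was called lower in T138 against WT, by -1.19 ± 0.26 (adjusted p = 0.0146). Without T138 replicate 1, T138 replicate 2 or WT replicate 3 that call was lost (adjusted p 0.0986, 0.0535 and 0.0557). Pfkp was at 2295 and 1748 for T138, 4205, 2970 and 2676 for T143, and 2836, 2884 and 2970 for WT. It was higher in T143 than in T138 by 0.68 ± 0.20 (adjusted p = 0.0342), and 5 libraries each ended that call when left out (adjusted p 0.0504 to 0.248).

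The PFKFB enzymes set the level of fructose 2,6-bisphosphate, an activator of phosphofructokinase. Pfkfb4 (chromosome 9, 108988272 to 109032236) was at 255 and 295 for T138, 533, 753 and 1623 for T143, and 163, 203 and 198 for WT. Every T143 library exceeded every other library. The change was 2.21 ± 0.35 against WT (adjusted p = 0.00171) and 1.66 ± 0.39 against T138 (adjusted p = 0.0144). The call against T138 was lost without T138 replicate 1 (adjusted p = 0.0815) or replicate 2 (adjusted p = 0.0709). Pfkfb3, the other form, was at 1317 and 1060 for T138, 1264, 1194 and 1538 for T143, and 1536, 1940 and 1604 for WT. Its T143 and WT values overlapped, and it was not called.

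Aldolase splits fructose bisphosphate. Aldoa was at 4443 and 4097 for T138, 5234, 4593 and 7150 for T143, and 3456, 2723 and 4314 for WT. T143 lay above WT without overlap, by 0.69 ± 0.20 (adjusted p = 0.0288), a call lost on leaving out replicate 1 or 3 of T143, or replicate 1 or 2 of WT (adjusted p 0.0505 to 0.0942). Aldoc, the brain form, was at 39.8 to 196 and was not called. Aldoa made up 96.9 to 99.6% of both forms per kilobase.

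In lower glycolysis (7 genes), Pkm was called in 1 comparison, Eno3 in 2 and the other 5 in none. That was 14.3% of these genes in each comparison. All genes gave 21.0% in T143 against T138, 11.0% in T138 against WT and 23.8% in T143 against WT. Pkm encodes muscle pyruvate kinase, the last enzyme of the pathway. Its values were 4945 and 3710 for T138, 6981, 5909 and 10203 for T143, and 5473, 3897 and 6154 for WT. It was higher in T143 than in T138 by 0.81 ± 0.26 (adjusted p = 0.0473), and 6 libraries each ended the call when left out (adjusted p 0.06 to 0.287). Without T143 replicate 3 the change was 0.58.

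Eno3 encodes the muscle form of enolase (chromosome 11, 70653125 to 70662513). Its values were 794 and 641 for T138, 438, 456 and 374 for T143, and 2123, 1078 and 1506 for WT. The groups did not overlap, in the order WT, T138, T143. The change was -1.84 ± 0.23 in T143 against WT (adjusted p = 0.000536) and -1.08 ± 0.26 in T138 against WT (adjusted p = 0.0246). The latter call was lost on leaving out either T138 library, or replicate 1 or 3 of WT (adjusted p 0.0573 to 0.168). Eno1, the widely expressed enolase, was at 548 and 436 for T138, 695, 666 and 833 for T143, and 568, 394 and 782 for WT. T143 lay above T138 without overlap, WT overlapped both lines, and no comparison was called.

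Tpi1 was at 525 to 1793, highest in T143 replicate 3, and had no call. Gapdh, Pgk1 and Pgam1 were listed at low values for central enzymes: 27.2 to 144, 57.6 to 228 and 10.8 to 109. Per kilobase the mean of Gapdh in WT was 58.6 against 2258 for Aldoa. These genes have processed copies elsewhere in the genome and no source used here gives the handling of reads that fit several places, so their counts are uncertain. In T143 against T138 Gapdh gave -1.40 ± 0.60 (adjusted p = 0.122) and Pgk1 1.41 ± 0.48 (adjusted p = 0.0622). Pgk1, like Pdk3, lies on the X chromosome, and for both genes sex cannot be told apart from the line.

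At the fate of pyruvate, Ldha was high in T143 and Ldhb low in both lines. Ldha encodes the lactate dehydrogenase subunit that favours lactate formation and is a known HIF target (chromosome 7, 46842274 to 46855627). Its values were 3737 and 3157 for T138, 9168, 6152 and 7519 for T143, and 5069, 3229 and 4928 for WT. Every T143 library exceeded every other library, by 1.13 ± 0.23 over T138 (adjusted p = 0.00668) and 0.80 ± 0.20 over WT (adjusted p = 0.0166). T143 replicate 3 was at 0.982 times the mean of the other two T143 libraries. The part of other cells in the values of Ldha was not tested. The call against T138 was lost without T138 replicate 2 (adjusted p = 0.0753) and that against WT without T143 replicate 1 (adjusted p = 0.0565). Ldhb encodes the subunit that favours the return of lactate to pyruvate (chromosome 6, 142490249 to 142507957). Its values were 105 and 50.0 for T138, 55.7, 48.4 and 64.4 for T143, and 291, 260 and 266.0 for WT. WT lay above both lines without overlap, and the lines overlapped each other. The change against WT was -2.26 ± 0.38 in T143 (adjusted p = 0.00221) and -1.89 ± 0.43 in T138 (adjusted p = 0.0185). The T138 call was lost without T138 replicate 2 (adjusted p = 0.11), WT replicate 1 (adjusted p = 0.0526) or WT replicate 3 (adjusted p = 0.0621).

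Pyruvate dehydrogenase kinases keep pyruvate out of mitochondria. Pdk3 was at 267 and 312 for T138, 462, 498 and 734 for T143, and 360, 502 and 489 for WT. It was higher in T143 than in T138 by 0.94 ± 0.26 (adjusted p = 0.0297), and 5 libraries each ended the call when left out (adjusted p 0.05 to 0.136). Pdk1, a known HIF target, was at 460 and 781 for T138, 537, 752 and 541 for T143, and 557, 780 and 525 for WT. Its changes were 0.01 ± 0.28, -0.03 ± 0.28 and -0.02 ± 0.25 in T143 against T138, T138 against WT and T143 against WT.

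Of the oxygen sensing genes (5 genes), Egln3 was called and Hif1a, Arnt, Vhl and Egln1 were not. Hif1a, the oxygen-regulated subunit, was at 5691 and 5699 for T138, 4354, 4069 and 5432 for T143, and 4230, 4101 and 4670 for WT. T138 was above every other library, by 0.40 ± 0.15 over WT (adjusted p = 0.139). HIF-1 alpha is regulated mainly at the protein level, which was not measured. Arnt, its partner, was at 1463 to 2190, and Vhl, which marks the hydroxylated subunit for degradation, at 431 to 720. Egln1, the main prolyl hydroxylase, was at 1423 and 1040 for T138, 1924, 1531 and 1312 for T143, and 1086, 1034 and 1280 for WT, with 0.48 ± 0.18 in T143 against WT (adjusted p = 0.0877). Egln3 encodes a prolyl hydroxylase that is itself a known HIF target (chromosome 12, 54178981 to 54203874). Its values were 808 and 538 for T138, 95.5, 131 and 460 for T143, and 176, 224 and 191 for WT. T138 lay above every other library, and T143 replicate 3 stood at 4.06 times the mean of the other two T143 libraries. Egln3 was lower in T143 than in T138 by -1.87 ± 0.55 (adjusted p = 0.0351), a call that edgeR on recovered reads did not make (adjusted p = 0.119) and that 6 libraries each ended when left out (adjusted p 0.0512 to 0.181). Without T143 replicate 3 the change was -2.55 (adjusted p = 0.000974). Against WT, T138 gave 1.75 ± 0.55 (adjusted p = 0.0688), which passed the threshold under 6 alternatives, among them DESeq2 (adjusted p = 0.0139) and leaving out T143 replicate 3 (adjusted p = 0.00578).

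Among other hypoxia-induced genes (4 genes), 25.0% were called in T143 against T138 and 25.0% in T143 against WT. All genes gave 21.0 and 23.8% in these comparisons. The gene called was Ddit4. It encodes REDD1, an inhibitor of mTORC1 that hypoxia, glucocorticoids and energy stress are known to induce (chromosome 10, 59949675 to 59951770). Its values were 1003 and 1078 for T138, 3037, 3474 and 4266 for T143, and 2488, 1281 and 2193 for WT. The groups did not overlap, in the order T143, WT, T138. T143 was higher by 1.77 ± 0.26 than T138 (adjusted p = 0.00141) and by 0.90 ± 0.23 than WT (adjusted p = 0.0181), and the call against WT was lost without T143 replicate 3 (adjusted p = 0.0558). T138 against WT gave -0.88 ± 0.26 (adjusted p = 0.054). Vegfa, the vascular growth factor gene and a classical HIF target, was at 40.4 and 0 for T138, 27.9, 81.5 and 248 for T143, and 3.44, 20.2 and 15.2 for WT. T143 replicate 3 stood at 4.53 times the mean of the other two T143 libraries, and no comparison was called (T143 against WT 2.87 ± 1.34, adjusted p = 0.151). Without T138 replicate 1 it was called higher in T143 than in T138, against the T138 library at 0 (adjusted p = 0.0192). Bnip3, a mitophagy receptor gene, was at 63.0 and 5.93 for T138, 43.8, 45.8 and 38.4 for T143, and 46.2, 36.2 and 38.8 for WT. P4ha1, a collagen prolyl hydroxylase gene, was at 2467 and 2041 for T138, 2046, 1453 and 1177 for T143, and 2019, 1344 and 1718 for WT. Neither was called.

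Per kilobase of transcript, Ldha, Aldoa and Pkm had the 3 highest mean levels of the members in each group. In T143 the order was Ldha (4194 per kilobase), Aldoa (3653) and Pkm (3165). In WT it was Ldha (2429), Aldoa (2258) and Pkm (2128), and in T138 Aldoa (2757), Ldha (1899) and Pkm (1779). Neighbours in these orders overlapped over libraries in T143 and WT, and in T138 the same held of Ldha and Pkm. The shares of isoforms within a family, computed per kilobase, differed between groups. Hk3 made up 14.0, 24.0 and 42.2% of the 3 hexokinases in T143, 7.43 and 8.17% for T138 and 0.0529, 2.31 and 0.739% for WT. Pfkfb4 made up 20.7, 28.1 and 39.5% of Pfkfb3 and Pfkfb4 in T143, 10.7 and 14.7% for T138 and 6.1 to 7.1% for WT. By the deposited counts, Eno1 was the larger enolase of the pair in T143, at 55.0, 53.0 and 63.2%. It was the smaller in T138, at 34.7 and 34.4%, and in WT, at 17.1, 22.0 and 28.6%. The mean of Eno1 in WT, 287 per kilobase against 2258 for Aldoa, is low for a central enzyme. How reads that fit several places were handled is not given, so the enolase shares are uncertain. Ldhb made up 6.99 to 10.1% of both lactate dehydrogenases in WT, 3.77 and 2.15% for T138 and 0.839 to 1.18% for T143. Egln3 made up 43.4 and 41.1% of Egln1 and Egln3 in T138, 6.28, 10.4 and 32.1% for T143 and 16.8 to 22.6% for WT. Slc16a3 took a larger share in T138 than in WT without overlap, and T143 overlapped both, at 59.8 and 43.7% of both lactate transporters in T138, 39.7, 37.6 and 68.5% for T143 and 28.2, 28.9 and 37.9% for WT. These shares are descriptions of values already tested gene by gene, and no share was tested.

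**Figure D3:**
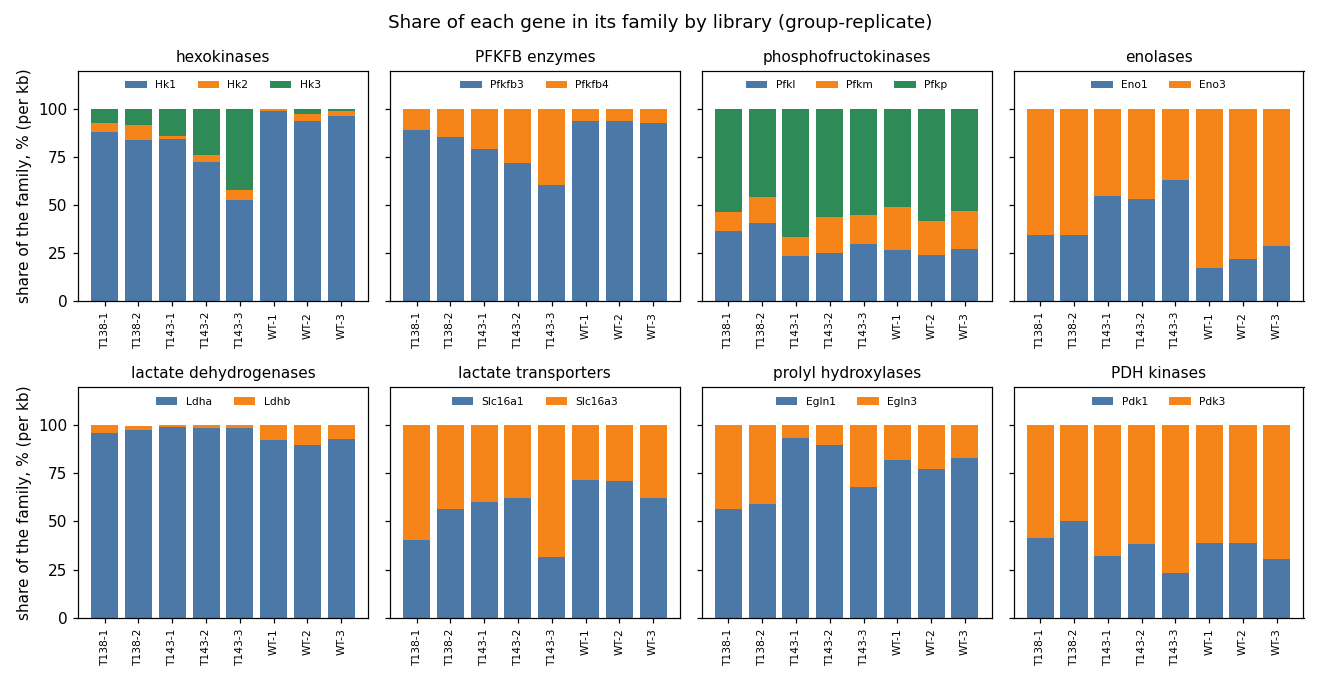
Share of each gene in its family (y axis, % of the family's normalised read count per kilobase) in each of the 8 libraries (x axis, group and replicate) for 8 families. Hk3 and Pfkfb4 take the most in T143 replicate 3, at 42.2 and 39.5%, Eno1 is above 50% in the T143 libraries, and Ldhb is largest in WT.

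T143 replicate 3 was the highest of the 3 T143 libraries for 23 of the 35 members (65.7%), where it was the highest for 34.6% of all genes tested. The ratio of that library to the mean of the other two was 4.53 for Vegfa, 4.06 for Egln3, 3.53 for Slc16a3, 3.5 for Hk3, 2.95 for Hk2, 2.52 for Pfkfb4 and 2.15 for Slc2a3. It was 1.31 for Ddit4, 1.02 for Slc16a1, 0.982 for Ldha and 0.673 for P4ha1. The same library had the most neutrophil signal, with 3.8% against 0.618 and 1.06%. Of the 15 neutrophil markers, 9, 4 and 6 were at 0 in WT replicates 1, 2 and 3, and 10 of 15 were called higher in T143 against T138, 14 in T143 against WT and 11 in T138 against WT. Markers of dendritic cells and MHC class II (10 genes) made up 0.674 and 0.507% of the signal for T138 and 0.0446, 0.185 and 0.129% for T143, and WT held 0.011% or less. Erythroid markers (10 genes) made up 0.0194, 0.111 and 0.06% for T143 replicates 1, 2 and 3, 0.016% or less for T138 and 0.00652% or less for WT. Of these 10, 4 were called higher in T143 against T138, 2 in T138 against WT and 9 in T143 against WT. Slc16a1, at 866, 1322 and 1111, ranked the T143 libraries as the erythroid markers did. The dendritic cell markers ranked them the same way, and so did NK cell markers (6 genes), at 0.00656, 0.0105 and 0.00896%. The part of other cells in the members' values was not tested. Without T138 replicate 1 and T143 replicate 3, the libraries with the most neutrophil signal of their groups, Slc16a1 (1.51, adjusted p = 0.0199), Ddit4 (1.59, adjusted p = 0.0319), Pfkp (1.01, adjusted p = 0.0317) and Egln3 (-2.25, adjusted p = 0.0139) were still called in T143 against T138. The other 6 calls of that comparison were lost: Ldha (1.25, adjusted p = 0.0506), Hk1 (adjusted p = 0.0725), Pfkfb4 (1.10, adjusted p = 0.0793), Pkm (adjusted p = 0.106), Slc16a3 (adjusted p = 0.138) and Pdk3 (adjusted p = 0.218). Slc2a3 (-0.83, adjusted p = 0.0299) was newly called lower, and Vegfa (adjusted p = 0.0386) newly called higher against the T138 library at 0. Against WT, Hk3, Pfkfb4, Eno3, Ldhb, Slc16a1 and Slc16a3 were still called, with adjusted p from 0.00442 to 0.0294, but Ldha, Ddit4, Aldoa and Gpi1 were not (adjusted p 0.0642 to 0.168), and Slc2a3 (-0.49, adjusted p = 0.0462) and Egln1 (0.60, adjusted p = 0.0499) were newly called. This setting left 1 T138 library, and fewer of all genes were called in each comparison as well. The remaining T143 libraries still held at least 0.618% of neutrophil signal.

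**Figure D4:**
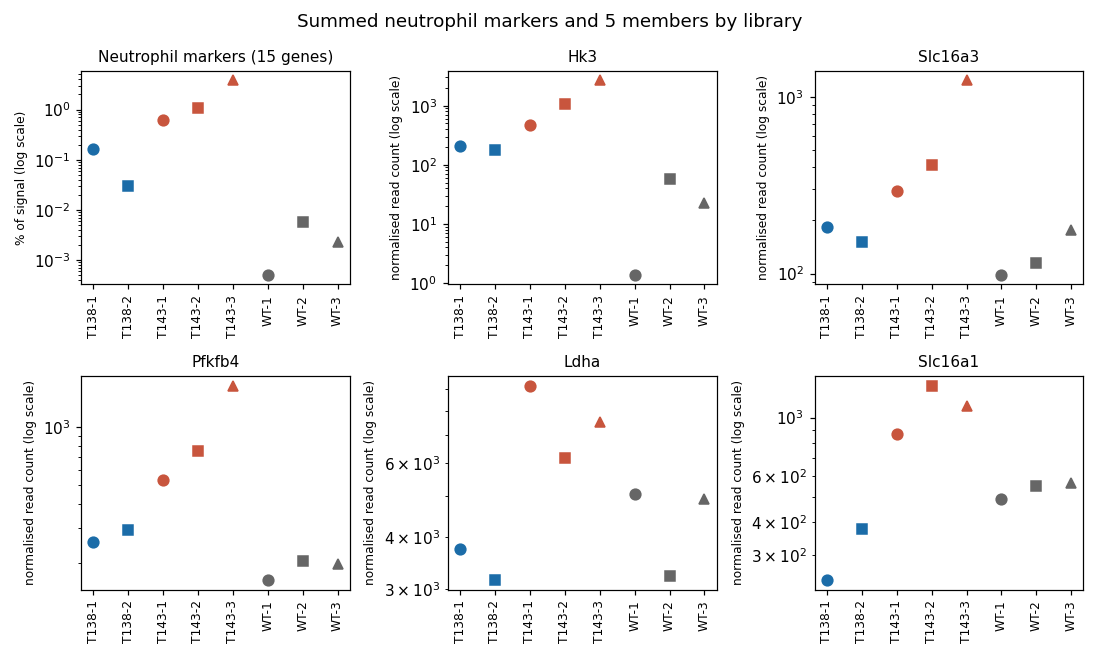
Summed neutrophil markers (% of the signal) and normalised read counts of 5 members (y axes, log scales) in each of the 8 libraries (x axes, group and replicate). Hk3, Slc16a3 and Pfkfb4 rank T143 replicates 1, 2 and 3 as the markers do, at 468, 1058 and 2670 for Hk3. Ldha is highest in T143 replicate 1 (9168) and Slc16a1 in T143 replicate 2 (1322). Markers of Treg cells (0.07, 0.0909 and 0.127%) and of monocytes, not drawn, rank these libraries as the neutrophil markers do.

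Other genes of the same pathways were read from lists that leave the members out. Of all genes tested, 10.8% were called higher and 10.2% lower in T143 against T138. Those shares were 5.74 and 5.3% in T138 against WT, and 11.7 and 12.1% in T143 against WT. Of 27 further glycolysis genes tested, 7 were called higher and 2 lower in T143 against T138, 1 lower in T138 against WT, and 8 higher and 2 lower in T143 against WT. Their median changes were 0.39, 0.00 and 0.40, where those of all genes tested were 0.15, -0.06 and 0.05. Eno2, the neuronal enolase, was at 519 and 279 for T138, 25.9, 40.7 and 76.7 for T143, and 670.2, 660.3 and 435 for WT, and was lower in T143, by -3.11 ± 0.47 against T138 (adjusted p = 0.00163) and -3.71 ± 0.42 against WT (adjusted p = 0.000302). Minpp1, a phosphatase that can bypass part of lower glycolysis, was higher in T143 by 1.42 ± 0.19 than T138 (adjusted p = 0.00105) and by 1.04 ± 0.17 than WT (adjusted p = 0.00214). In the pentose phosphate pathway (10 genes), which makes NADPH and ribose from glucose 6-phosphate, 3 were called in T143 against T138 and 5 against WT, each higher, with median changes of 0.67 and 0.90. In T138 against WT limma, edgeR and DESeq2 called 0 of these 10, and 1 was lower at an unadjusted limma p under 0.05. Pgd, which yields NADPH, was at 1044 and 811 for T138, 2297, 3049 and 7974 for T143, and 921, 915 and 1021 for WT, a change of 2.01 ± 0.38 against WT (adjusted p = 0.00499). Taldo1, of the non-oxidative branch, was higher by 1.23 ± 0.20 (adjusted p = 0.00192) and Rpe by 1.04 ± 0.20 (adjusted p = 0.00392) in the same comparison. T143 replicate 3 was again the highest for Pgd, while Rpe was at 1091, 967 and 1056 in T143. Of 14 genes of pyruvate entry to mitochondria, 4 were called higher in T143 against T138 (Dld, Pcx, Pdha1 and Pdpr), and 1 against WT (Dld). Pdha1 lies on the X chromosome, as do G6pdx, Prps1 and Prps2 of the pentose phosphate list. For these genes too, sex cannot be told apart from the line T143. In T138 against WT limma, edgeR and DESeq2 called 0 of the 14, and 3 were lower at an unadjusted limma p under 0.05. Dld, a shared subunit of pyruvate dehydrogenase, was at 1136 and 1121 for T138 and 1574, 1726 and 1635 for T143, a change of 0.54 ± 0.14 (adjusted p = 0.0215).

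Of 20 further HIF regulators, 2 were called lower in T143 against T138, 1 higher in T138 against WT, and 2 higher and 2 lower in T143 against WT. Usp20, a deubiquitinase reported to stabilise HIF-1 alpha, was at 1722 and 1565 for T138, 585, 592 and 691 for T143, and 1108, 869 and 1138 for WT, a change of -1.40 ± 0.18 in T143 against T138 (adjusted p = 0.000685). Epas1, which encodes HIF-2 alpha, was at 234 and 184 for T138, 175, 179 and 899 for T143, and 44.1, 90.5 and 88.2 for WT, and was higher in T143 than in WT by 2.09 ± 0.59 (adjusted p = 0.0265), with T143 replicate 3 far above the other two. Of 38 further HIF targets, 1 was called higher and 2 lower in T143 against T138, 2 and 3 in T138 against WT, and 5 and 2 in T143 against WT, with medians of 0.21, 0.03 and 0.21. Car12, a carbonic anhydrase gene, was at 156 and 94.8 for T138, 167, 127 and 118 for T143, and 716, 883 and 516 for WT, and was lower in both lines, by -2.49 ± 0.34 in T138 (adjusted p = 0.00149) and -2.33 ± 0.30 in T143 (adjusted p = 0.000611). Ier3 went the other way, at 976 and 695 for T138, 79.6, 127 and 428 for T143, and 8.27, 17.0 and 5.32 for WT. It was called higher in both lines against WT and lower in T143 against T138. Bnip3l, a mitophagy receptor gene like Bnip3, was at 3045, 2363 and 2182 in T143 and 1743, 1447 and 1407 in WT, a change of 0.71 ± 0.16 (adjusted p = 0.0097). The share of these HIF targets called higher was 2.63% in T143 against T138, where all genes gave 10.8%. It was 5.26% in T138 against WT, where all genes gave 5.74%, and 13.2% in T143 against WT, where all genes gave 11.7%. The shares called lower were 5.26, 7.89 and 5.26% in the same order, where all genes gave 10.2, 5.3 and 12.1%. No list was tested as such.

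**Figure D5:**
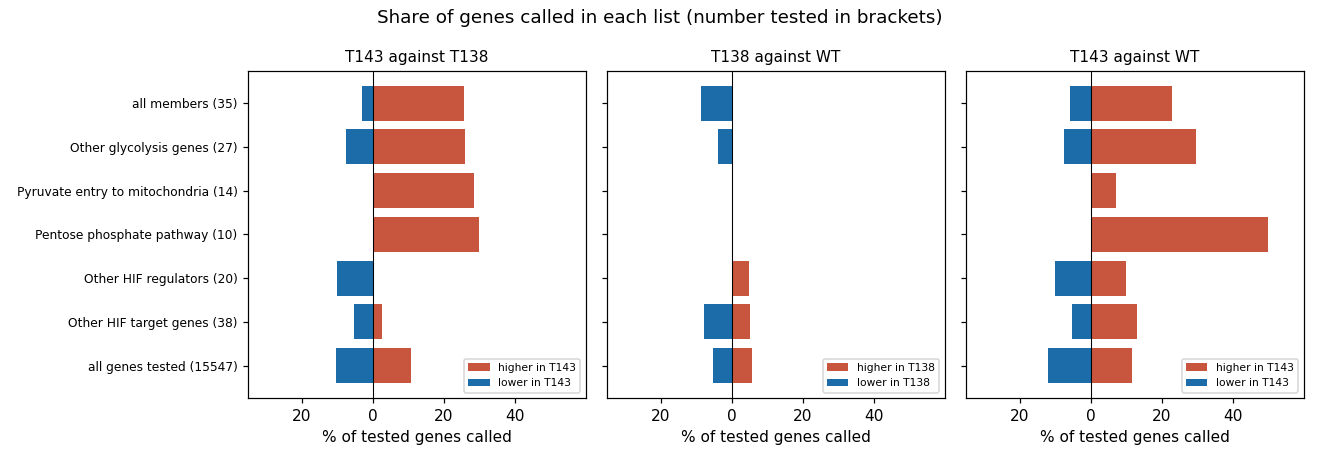
Share of tested genes called higher (red, to the right) and lower (blue, to the left) in % (x axis) for the 35 members, 5 further lists without the members, and all 15547 genes tested (y axis, number tested in brackets), in the 3 comparisons. The pentose phosphate list reaches 50.0% called higher in T143 against WT (5 of 10), and the members and the lists of glycolysis, pyruvate entry and the pentose phosphate pathway have no red bar in T138 against WT.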

How the data were processed

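The deposited values are a signal: read counts per gene that the authors divided by 1 factor per library, which brought each to the same total. Dividing by each library's step gave whole reads for 100% of values (within 0.01 units). Per the submitters' processing notes, CASAVA 1.8.2, STAR 2.5.2b, HOMER 4.8, edgeR and mm10 were used, with no role or order given. The labels' protocols name a stranded mRNA kit; no source used here gives the handling of strand, duplicates or multi-mapping reads.

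Log2(value + 1) was fitted for all 8 libraries together in limma 3.58.1 (R 4.3.3) with group means, trend and robust moderation, on the 15547 of 24453 genes that reached a value of 1 in 2 or more libraries. Tests were two-sided. Count tests on recovered reads called 2718, 1278 and 3263 genes in edgeR 4.0.16 and 3923, 2269 and 4246 in DESeq2 1.42.0, for T143 against T138, T138 against WT and T143 against WT. All 20 alternatives were planned and the fit was tested on simulated data. The lists, like the members, were chosen with earlier results of these data known. Named genes are all members and, per list and comparison, some of the at most 4 called genes with the smallest p. Positions and lengths came from RefSeq and GENCODE (GRCm38), start regions from RefSeq.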

Additional observations from a re-analysis of the deposited data

How the results depend on the processing

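No member changed direction while called. Over 35 members, 3 comparisons and 20 alternatives, 1942 values kept their side of the threshold, 107 lost and 51 gained a call. Members called in T143 against T138 (10) fell to 6 when only those groups were fitted, to 6 with edgeR and to 6 without both libraries with the most neutrophil signal; leaving out 1 library gave 2 to 10. Those called in T138 against WT (3) became 5 with only those groups, 6 with median centring, 6 with DESeq2 and 1 without both libraries with the most neutrophil signal; leaving out 1 library gave 0 to 6. At 0, without T138 replicate 2 or WT replicate 3, limma placed 7 and 9 members under an unadjusted p of 0.05; edgeR and DESeq2 were run on all libraries only, with 3 and 6 calls. In T143 against WT (10), leaving out 1 library gave 8 to 10. All genes called without both libraries with the most neutrophil signal were 1737 of 3272 for T143 against T138 and 989 of 1716 for T138 against WT. Leaving out 1 library gave 1345 to 3674 for T143 against T138, 757 to 1837 for T138 against WT and 2460 to 3575 for T143 against WT (3698). The causes were not tested, and a fit that leaves a library out also has fewer libraries. With 2 T138 libraries, leaving 1 out assumes that the lone library varies like the others.

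With the replicate number as a block, 9, 9 and 12 members were called in T143 against T138, T138 against WT and T143 against WT, the 9 in T138 against WT being 5 higher and 4 lower. Libraries of the same number deviated together no more than others (correlations -0.062 to 0.055, against -0.073 to 0.073). Deviations from the mean of so small a group are tied to each other, and those of the T138 libraries are exact mirrors. This check therefore cannot settle whether the numbers pair libraries.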
